A study of Mus musculus with 8 samples.

Results

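The Trim5, Trim6, Trim12, Trim30 and Trim34 genes form a cluster on mouse chromosome 7, and their transcripts were followed here in lung epithelium-enriched cells with and without chronic exposure to cigarette smoke (CS). The genes were taken by name, as every row of the count table whose symbol is Trim5 or Trim6 or belongs to the Trim12, Trim30 or Trim34 series. This gave 11 of 22756 rows, which carry 10 symbols because Trim30b is split over a main gene model and a shorter one. The cluster was chosen by the genotype difference of Trim12a, Trim5 and Trim30d in these same libraries. Genotype values are therefore a description, without a test, whereas CS and sex were not used in the choice and were tested. The 11 rows lie within 289.1 kb of the mm9 build, chr7:111367307-111656363, with 3 on the plus and 8 on the minus strand.

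There were 8 RNA-Seq libraries from distal lung of adult mice that are more than 90 percent C57BL/6 by strain. The α7G mice (Chrna7-IRES-tauGFP) carry a GFP reporter behind the coding sequence of Chrna7, the gene of the nicotinic α7 receptor, and the α7E260A:G mice (Chrna7-E260A-IRES-tauGFP) carry in addition a point mutation that restricts calcium signaling by the receptor. The reporter is thus present in all groups, and wild type mice were not included. Mice of each genotype breathed room air (control) or side-stream CS on 5 days per week for 4 months, and each of these 4 groups has 1 male and 1 female library of lavaged lung cells from which CD45+ leukocytes were depleted. How many mice entered a library is not stated, so a spread between libraries combines sex with any difference between mice, and p-values measure only the spread between these libraries. Each mutant allele came from targeting by homologous recombination, and any other difference between the 2 lines cannot be told apart from the mutation. Library totals lay between 8020726 and 10944100 CDS counts, that is reads on coding sequence, and values below are RPM, the count divided by the library total and multiplied by 1000000. Ratios of genotypes are log2 ratios of mean RPM after 0.5 RPM was added to each mean. A count of 3, taken as the floor, was 0.274 to 0.374 RPM. Chrna7 lies 41.0 Mb from the cluster on the same chromosome and had no counts in 7 libraries and 4 counts in the other, so neither its level nor the mutation could be checked from counts.

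TRIM proteins are ubiquitin ligases built from a RING finger, a B-box and a coiled coil, to which the members of this cluster can add a B30.2 (SPRY) domain. The cluster is the mouse counterpart of the human TRIM5 locus, whose TRIM5 protein binds incoming retroviral capsids, and rodents have multiplied its genes into the Trim12 and Trim30 series. Trim30a is known as an interferon-inducible brake on NF-κB signaling and on the NLRP3 inflammasome, Trim6 and Trim34 belong to the same innate immune family, and many TRIM genes are themselves induced by interferon.

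The genes are near copies of each other, which matters for how their reads can be told apart. To show how alike the genes with and without counts in α7E260A:G are, the first 120 coding bases of the closest relatives are printed from the GENCODE M1 transcripts, where they matched the mm9 genome. Capitals mark bases that differ from the first sequence of each set. Trim12c (chr7:111496742-111496861), Trim12a (chr7:111455726-111455845) and Trim5 (chr7:111428127-111428246) lie on the minus strand, and Trim12a and Trim5 each differ from Trim12c at 3 of 120 positions.
Trim12c: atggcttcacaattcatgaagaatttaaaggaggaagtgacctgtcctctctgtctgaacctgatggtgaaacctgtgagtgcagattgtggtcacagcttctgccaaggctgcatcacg
Trim12a: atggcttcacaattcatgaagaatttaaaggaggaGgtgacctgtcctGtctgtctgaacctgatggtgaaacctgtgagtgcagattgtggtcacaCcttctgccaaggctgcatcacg
Trim5: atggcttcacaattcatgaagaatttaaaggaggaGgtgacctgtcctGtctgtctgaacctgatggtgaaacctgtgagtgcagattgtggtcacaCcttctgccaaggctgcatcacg

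In the Trim30 series, Trim30a (chr7:111584396-111584515), Trim30d (chr7:111636390-111636509) and Trim30b (chr7:111514574-111514693) are also on the minus strand. Trim30d differs from Trim30a at 8 of these 120 positions and Trim30b at 10.
Trim30a: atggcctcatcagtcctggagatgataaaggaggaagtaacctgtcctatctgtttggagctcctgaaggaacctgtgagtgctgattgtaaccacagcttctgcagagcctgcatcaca
Trim30d: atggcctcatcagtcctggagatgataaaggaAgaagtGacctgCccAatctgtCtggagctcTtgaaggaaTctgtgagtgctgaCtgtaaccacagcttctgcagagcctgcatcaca
Trim30b: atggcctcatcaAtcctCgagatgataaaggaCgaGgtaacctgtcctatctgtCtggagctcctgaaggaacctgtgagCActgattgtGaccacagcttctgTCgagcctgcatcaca

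Trim34a (chr7:111396245-111396364) and Trim34b (chr7:111478062-111478181) are on the plus strand and differ at 3 of 120 positions.
Trim34a: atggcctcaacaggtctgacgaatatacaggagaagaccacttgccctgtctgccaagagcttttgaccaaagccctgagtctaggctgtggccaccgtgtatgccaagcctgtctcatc
Trim34b: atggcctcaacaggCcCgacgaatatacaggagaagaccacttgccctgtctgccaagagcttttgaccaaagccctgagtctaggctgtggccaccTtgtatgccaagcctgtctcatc

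Over the whole aligned coding sequence, Trim34a and Trim34b were 98.8% identical, Trim5 and Trim12c 96.6%, Trim5 and Trim12a 91.0%, Trim12a and Trim12c 90.6%, and Trim30a and Trim30d 90.2%. The annotated coding sequence of Trim12a is shorter, with 984 bases against 1494 in Trim5 and Trim12c. Of all 50-base words in a gene's coding sequence, the share also found in a transcript of another protein-coding gene was 78.8% for Trim34b, 63.4% for Trim34a, 47.0% for Trim5, 40.3% for Trim12c, 31.1% for Trim12a, 19.2% for Trim30d, 15.7% for Trim30a and 13.4% for Trim30b. It was 0.737% for Trim30c and 0 for Trim6 and the shorter Trim30b model. The share of Trim30b includes its own shorter model, with 8.90% of the words found there and 4.45% in Trim30d. With words of 100 bases these shares fell to 61.0% for Trim34b, 36.7% for Trim34a, 21.4% for Trim5 and 10.6% for Trim12a. No word was found in a protein-coding transcript outside the 11 rows. Trim34a and Trim34b also share 151 annotated coding bases on the same strand. How reads with more than 1 place were counted is not given in the sources used here, so the split between Trim34a and Trim34b, and to a lesser extent between Trim5, Trim12a and Trim12c, is uncertain.

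**Figure D1:**
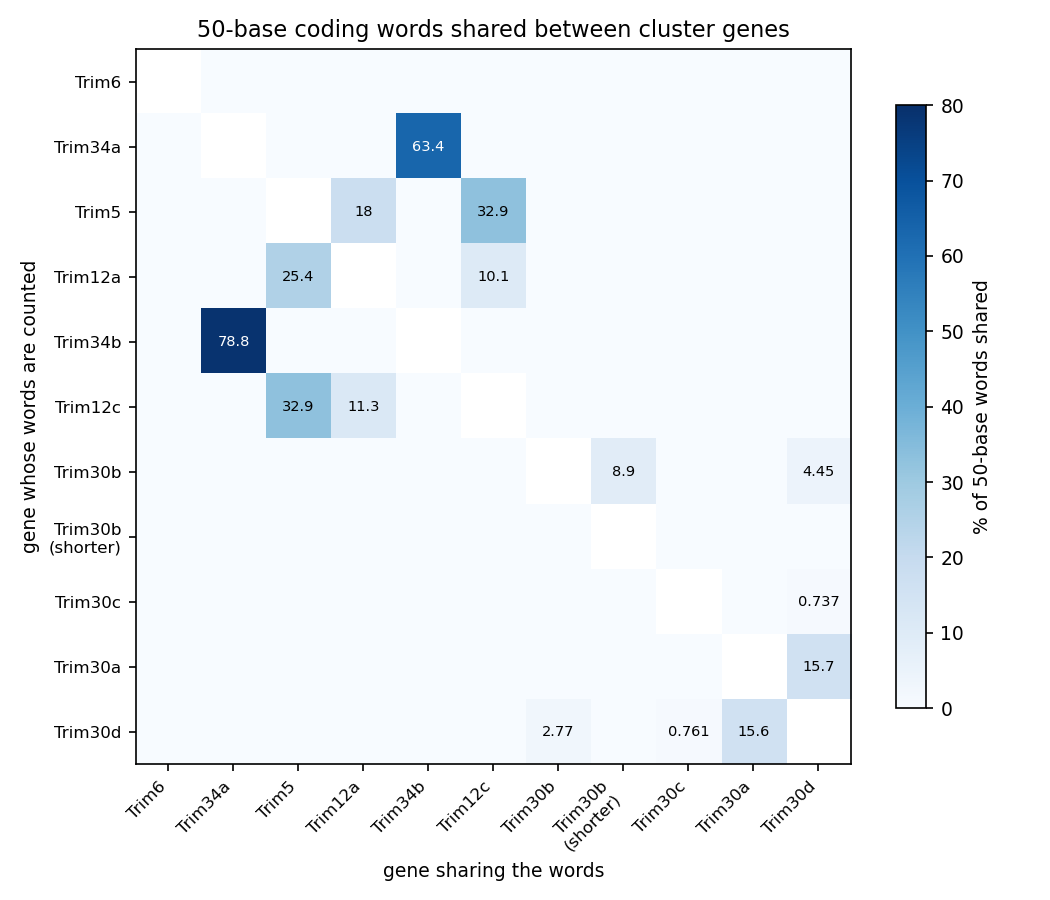
Share of the 50-base words of each gene's coding sequence (rows, %) that also occur in a transcript of another cluster gene (columns). Sharing is confined to 3 blocks, Trim34a with Trim34b (63.4% and 78.8%), Trim5 with Trim12a and Trim12c, and the Trim30 genes, and the diagonal is left blank.

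Between the genotypes the cluster fell into genes that were nearly without counts in α7E260A:G, genes that were lower, and genes whose levels overlapped. Trim12a, Trim30d and Trim5 were almost absent, Trim34a and Trim30b were lower, Trim34b was higher, and Trim12c, Trim30a, Trim30c, Trim6 and the shorter Trim30b model overlapped between the genotypes. Of the 11 rows, 5 were lower in α7E260A:G with no overlap of the 4 and 4 libraries, against 5.46% of the 14140 genes tested, and 1 was higher, against 2.33%. Since the cluster was chosen for this difference, nothing is read from the comparison with these shares.

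Trim12a (ENSMUSG00000066258.6, chr7:111448408-111463980), a Trim5 relative with a short coding sequence, had the largest difference. In α7G its level was 52.1 RPM in the control male, 49.1 in the control female, 46.0 in the CS male and 46.9 in the CS female. In α7E260A:G it had 1, 1, 0 and 1 counts in the same order. All α7G libraries were thus high and nearly equal, with 48.5 ± 2.71 RPM (SD, n = 4), and no α7E260A:G library reached the floor. The 3 counts of α7E260A:G set against 1704 of α7G make 0.171% of the α7G level, with an exact 95% interval of 0.0352% to 0.50% that covers counting error only. The log2 ratio was −6.40, the lowest of the 14140 genes tested.

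Trim30d (ENSMUSG00000057596.7, chr7:111618528-111656363), a close relative of Trim30a, came next among all genes. It had 27.9 and 20.8 RPM in the α7G control male and female and 12 and 14.1 RPM in the CS male and female. In α7E260A:G the control male and female had 5 and 7 counts and the CS male and female 4 and 0. The groups were far apart, with 18.7 ± 7.2 RPM against 0.437 ± 0.298 RPM (SD, n = 4 each) and a log2 ratio of −4.36. The pooled counts in α7E260A:G were 2.37% of the α7G level (exact 95% interval 1.35% to 3.88%).

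Trim5 (ENSMUSG00000060441.7, chr7:111411900-111436608) is the mouse gene named after the retroviral restriction factor. It was the third lowest of all genes, although it was expressed at a lower level than the former pair in α7G. Its level was 11.9 and 8.75 RPM in the α7G control male and female and 6.05 and 6.43 RPM in the CS male and female. In α7E260A:G the control male had 4 counts (0.487 RPM) and the other 3 libraries had 0, which allows up to 0.374 RPM. The log2 ratio was −3.82, and the pooled share was 1.34% (exact 95% interval 0.362% to 3.46%).

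Trim34a (ENSMUSG00000056144.7, chr7:111392971-111489207) was lower but still measurable. Its level was 30.7, 31.5, 39.5 and 20.2 RPM in the α7G control male, control female, CS male and CS female, and 5.48, 1.65, 5.86 and 3.32 RPM in the α7E260A:G libraries in the same order. The mean of 30.5 ± 7.90 RPM against 4.08 ± 1.97 RPM (SD, n = 4 each) gave a log2 ratio of −2.76, the sixth lowest of all genes.
Trim34b (ENSMUSG00000090215.1, chr7:111448744-111485423), its near copy, went the other way at a low level, with 0 to 8 counts in the α7G libraries and 11 to 25 counts in the α7E260A:G libraries, and a log2 ratio of 1.39. Because the 2 genes share most of their words, their counts were also summed. The sum was 30.9 ± 8.27 RPM in α7G and 6.04 ± 2.64 RPM in α7E260A:G, without overlap, and a log2 ratio of −2.26.

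Trim30b (ENSMUSG00000052749.7, chr7:111503896-111518398) had 39.6, 13.3, 14.3 and 17.5 RPM in the α7G control male, control female, CS male and CS female. The α7E260A:G libraries had 8.53, 7.22, 8.48 and 4.43 RPM in the same order. The α7G control male stood well above the other α7G libraries, but the lowest α7G library was still above the highest of α7E260A:G, and the log2 ratio of −1.50 became −1.02 without the α7G control male. The shorter Trim30b model (ENSMUSG00000091576.1) had 10 to 47 counts in α7G and 3 to 11 in α7E260A:G, which overlapped.

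The 2 most abundant retained genes were at like levels. Trim12c (ENSMUSG00000057143.7, chr7:111487268-111501876), which differs little from Trim5, had 39.7, 32.2, 24.1 and 22.3 RPM in the α7G control male, control female, CS male and CS female and 38.0, 24.0, 41.0 and 28.5 RPM in the α7E260A:G libraries in the same order. Its log2 ratio was 0.15 and its sign was negative in control libraries alone (−0.21). Trim30a (ENSMUSG00000030921.9, chr7:111557539-111613707), the regulator of NF-κB, had 77.0, 56.8, 49.7 and 39.0 RPM against 84.3, 50.4, 50.7 and 45.2 RPM, and its log2 ratio was 0.05, or −0.19 without the α7E260A:G control male. The libraries of the genotypes overlapped for both genes. Trim30c (ENSMUSG00000078616.1) had 8 to 42 counts and Trim6 (ENSMUSG00000072244.3) 7 to 32 counts per library, and Trim6 was lower in α7E260A:G in 4 of 4 pairs of the same sex and exposure while the ranges overlapped (log2 ratio −0.54).

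**Figure D2:**
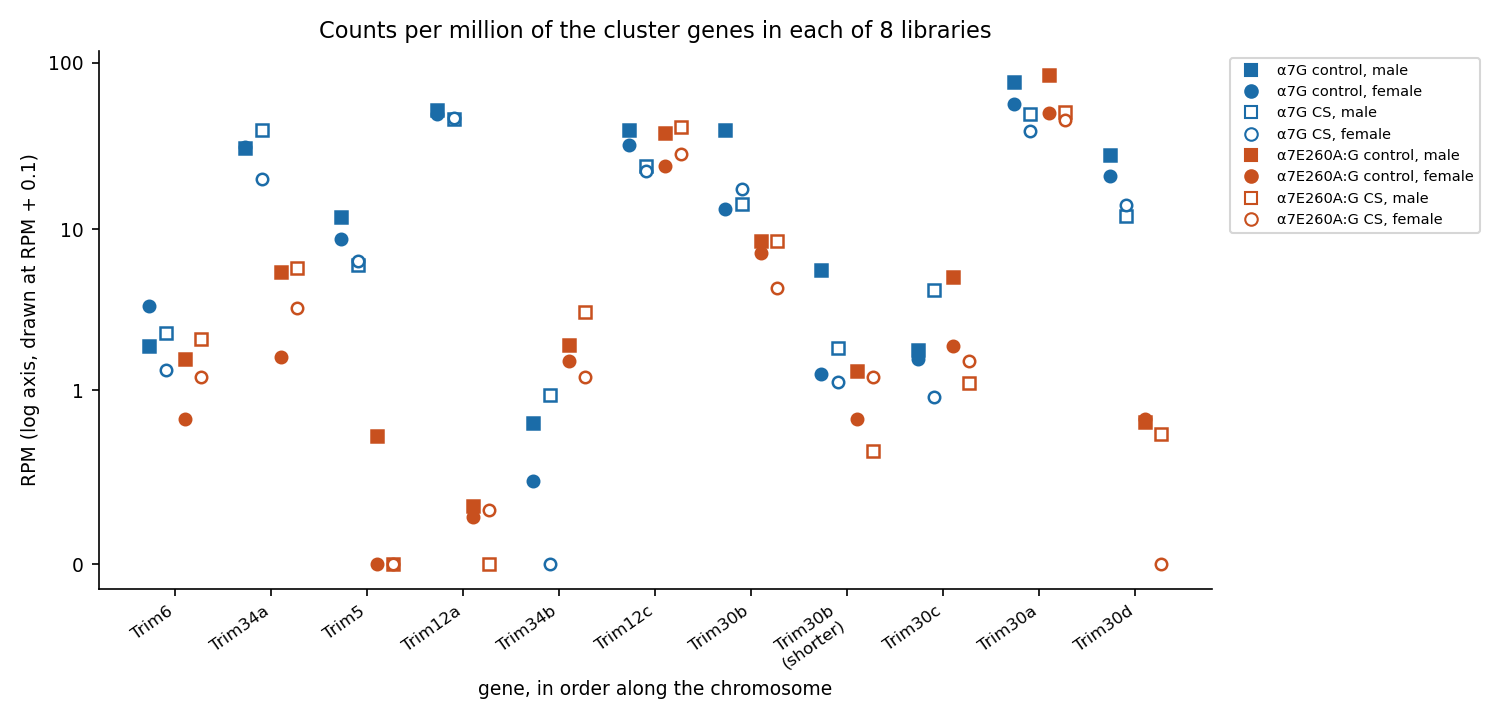
Level of each cluster row in RPM on a log axis, drawn at RPM + 0.1, in the 8 libraries, with α7G in blue, α7E260A:G in orange, control filled, CS open, males as squares and females as circles. Trim12a (46.0 to 52.1 RPM in α7G), Trim30d and Trim5 fall to at most 0.640 RPM in α7E260A:G, whereas Trim12c and Trim30a overlap.

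Summed over all 11 rows the cluster gave 219.7 ± 50.4 RPM in α7G and 109.1 ± 28.3 RPM in α7E260A:G (SD, n = 4 each). Trim12a with Trim12c gave 78.1 ± 10.7 and 33.0 ± 7.93 RPM without overlap, and the Trim30 rows together were 100.1 ± 35.6 and 68.6 ± 21.3 RPM, which overlapped. The composition of the cluster counts differed accordingly. Trim12a made up 18.0% to 27.6% of the cluster counts in α7G and at most 0.127% in α7E260A:G. Trim30a took 23.0% to 26.7% in α7G and 44.8% to 57.1% in α7E260A:G, and Trim12c 12% to 14.7% and 25.8% to 36.2%, although neither differed in RPM beyond the spread.

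**Figure D3:**
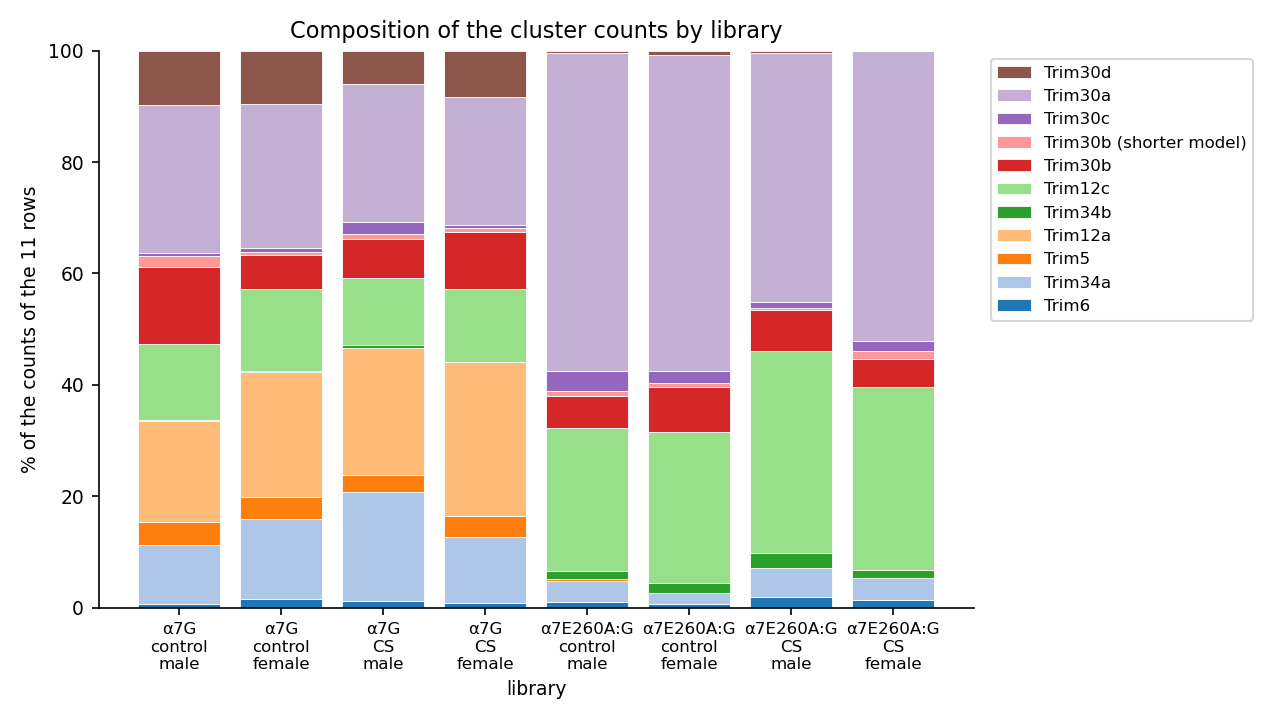
Percent of the counts of the 11 rows taken by each row, as stacked bars for each of the 8 libraries. Trim12a, Trim30d, Trim5 and most of Trim34a are missing from the 4 α7E260A:G bars, where Trim30a takes 44.8% to 57.1%.

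Levels were also set per kilobase of all annotated coding bases of a gene over its transcripts, 1184 bases for Trim12a. The share of words found in other genes differs by gene and the counting of such reads is not known. The order of the genes is therefore approximate. In α7G (n = 4) Trim12a was at 41.0 ± 2.29 RPM per kb. Trim30a was at a mean of 34.8 RPM per kb, from 24.4 to 48.1, and the libraries of Trim12a and Trim30a overlapped. Trim30b (20.5), Trim12c (19.9), Trim34a (16.9) and Trim30d (12.5 RPM per kb) followed, each overlapping its neighbour in this order. Trim5 (5.36 RPM per kb) lay below all of these without overlap, and Trim6, Trim30c and Trim34b were at 1.54, 1.40 and 0.300 RPM per kb. In α7E260A:G the order began with Trim30a at 36.1 ± 11.2 RPM per kb, Trim12c at 22.1 ± 5.33 and Trim30b at 6.92 ± 1.86, which were separate from each other, and ended with Trim30d, Trim5 and Trim12a at 0.293, 0.0789 and 0.0684 RPM per kb.

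Across the 8 libraries the patterns of Trim12a and Trim30d were alike (Pearson r of log2(RPM + 0.5) 0.98), as were those of Trim12a and Trim34a (0.94), whereas Trim12a and Trim12c were not (−0.24). These values are descriptions over 8 libraries that fall into 2 genotypes, and they share library and depth. Trim12a and Trim30d were chosen for their genotype difference, so a high correlation between them follows from that choice. Trim12a had 395 to 460 counts in the α7G libraries and 0 to 1 in those of α7E260A:G. Its correlation with any gene, Trim34a and Trim12c included, therefore mainly follows the genotype difference of that gene. The same limit holds for Trim30d and for the genes named as most like either, and nothing is read from these values. Among the 11366 genes with which they could be compared, the genes most like Trim12a were Prr5 (0.98), Sept6 (0.98) and Snapc1 (0.97), those most like Trim30d were Sept6 (0.99), Gpt (0.97) and Mtmr7 (0.97), and those most like Trim34a were Cnp (0.98), Bcam (0.98) and Trim27 (0.97). Sept6, for example, was at 115.5 RPM in α7G and 79.6 RPM in α7E260A:G, a smaller difference than that of either Trim gene. Trim12c was most like Eml5, Atp11b and Ddx46 (0.99 each), Trim30a most like Itpripl1 (0.97), Zfp828 (0.96) and Itpr1 (0.96), and Trim30b most like Jakmip1 (0.98), Traf3ip3 (0.97) and Gimap3 (0.96).

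Along the chromosome, the levels of most genes that flank the cluster overlapped between the genotypes. Within 2 Mb on either side there were 173 other protein-coding genes, of which 129 are olfactory receptors, and 23 had a mean count of at least 50. Of these, Apbb1, an adaptor of the amyloid precursor protein, was lower (55.5 ± 7.32 against 36.8 ± 9.57 RPM, SD, n = 4 each) and Gm4759, a predicted gene, was higher in α7E260A:G (2.72 ± 1.97 against 13 ± 5.48 RPM) without overlap. The other 21, Pgap2, Rhog, Stim1, Rrm1, Trim21, Trim68, Hbb-b2, Hbb-b1, Fam160a2, Prkcdbp, Smpd1, Trim3, Arfip2, Fxc1, Dnhd1, Rrp8, Ilk, Taf10, Tpp1, Dchs1 and Mrpl17, overlapped, and the median log2 ratio of the 23 was −0.06, as over all genes tested (−0.06). Of the genes tested within 5 Mb, 9 of 84 (10.7%) did not overlap between the genotypes, and around Chrna7 0 of 30 did so, beside 7.75% of all genes outside the cluster. Over all chromosomes, 21 genes were lower in α7E260A:G by more than 4-fold, 17 of them without overlap. By the same measure 62 genes were higher, 31 of them without overlap. Of the 17 lower genes, 6 were on chromosome 7. Among these, Trim12a, Trim30d, Trim5 and Trim34a belong to the cluster chosen for this difference, and the others are Gm1966 and Gvin1. The share of all tested genes on chromosome 7 was not set beside this, and nothing is read from the number.

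**Figure D4:**
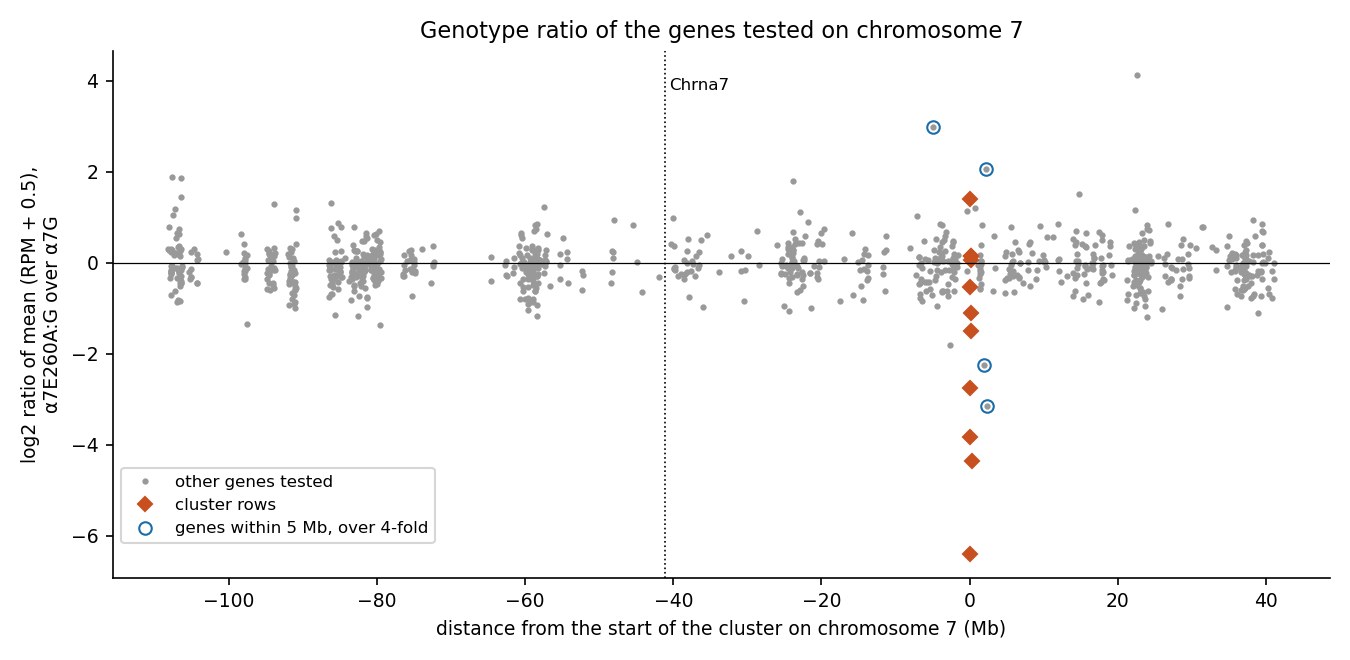
Log2 ratio of mean RPM + 0.5, α7E260A:G over α7G, of each gene tested on chromosome 7 against its distance from the start of the cluster (Mb), with the 11 cluster rows as diamonds and Chrna7 as a dotted line. The cluster rows reach from −6.40 to 1.39, and the circled genes within 5 Mb are the 4 that differ by more than 4-fold.

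The cell makeup of the libraries also differed between the genotypes. The labels call the cells more than 95 percent epithelial, and the alveolar type II markers were present, but Ptprc, which encodes CD45, was at 771.4 to 1935 RPM in α7G and 846.8 to 1851 RPM in α7E260A:G. Over all genes tested, 2.33% were higher and 5.46% lower in α7E260A:G without overlap. Markers of alveolar macrophages summed to 10200 to 17120 RPM in α7G and 24540 to 39590 RPM in α7E260A:G, and 7 of 10 were higher without overlap, among them Chi3l3 and Marco. Alveolar type II markers summed to 18620 to 28420 RPM and 4169 to 13650 RPM, with 4 of 6 lower without overlap, and B cell markers to 1072 to 1860 RPM and 578.9 to 756.8 RPM, with 4 of 4 lower. The sums of the other cell types overlapped. Of these, 1 of 5 T cell, 1 of 5 endothelial, 1 of 5 epithelial and 1 of 3 club cell markers were lower without overlap. None of the NK cell, neutrophil, ciliated and fibroblast markers was without overlap. None of these markers was at 0 throughout. The part of the cell makeup in the Trim values was not tested, and in such mixed cells fewer cells of a type and less transcript per cell cannot be told apart.

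CS against control was tested with edgeR in each genotype, over both genotypes and as the difference between the genotypes, and no row of the cluster passed an adjusted p of 0.05 in any of these tests. This was also so for nearly all genes, as the share called was 0% over both genotypes, 0% in α7G, 0.00707% in α7E260A:G and 0% for the difference of the CS responses. At an unadjusted p of 0.05 the test over both genotypes picked 1067 genes and 1 of the 11 rows, and in α7G, in α7E260A:G and for the difference 945, 436 and 310 genes and none of the rows. DESeq2 called 63, 18, 34 and 7 genes in these comparisons and none of the rows. In α7G the median fitted log2 fold change of the 11 rows was −0.45, beside 0.00 over all genes, and 7 of 11 were negative. Near copies are among these rows, and the share of negative values over all genes was not counted. Nothing is therefore read from the median or the number of negative rows. No such median is given where α7E260A:G enters, since Trim12a, Trim5 and Trim30d had almost no counts there.

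Trim30a, the most abundant row, was the one with an unadjusted p under 0.05 over both genotypes in edgeR. DESeq2 gave 3 such rows, Trim30a, Trim5 and Trim30d, of which the latter pair had almost no counts in α7E260A:G. How many of all genes DESeq2 put under 0.05 was not counted, so nothing is read from these 3. Trim5 and Trim30d were also under 0.05 in edgeR without a filter and with a CDS length offset. The level of Trim30a was lower in CS than in control in 4 of 4 comparisons of the same sex and genotype. It went from 77.0 to 49.7 RPM in α7G males, from 56.8 to 39.0 in α7G females, from 84.3 to 50.7 in α7E260A:G males and from 50.4 to 45.2 in α7E260A:G females. The control and CS ranges did not overlap in α7G but did in α7E260A:G. The edgeR log2 fold change over both genotypes was −0.49 ± 0.18 (SE, adjusted p = 0.653), with −0.45 ± 0.26 in α7G and −0.52 ± 0.26 in α7E260A:G (adjusted p = 0.646 and 1), and the difference of −0.07 ± 0.37 was within its error. Over the alternative settings its log2 fold change lay between −0.59 and −0.38 and the lowest adjusted p was 0.0913.

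Trim30d and Trim5 had enough counts for a fold change in α7G alone, since the α7E260A:G libraries had 0 to 7 counts of Trim30d and 0 to 4 counts of Trim5. Trim30d went from 24.4 ± 5.01 RPM in control to 13 ± 1.5 RPM in CS (SD, n = 2 each), and Trim5 from 10.3 ± 2.23 to 6.24 ± 0.268 RPM, with CS lower in both sexes. The edgeR log2 fold changes were −0.76 ± 0.51 for Trim30d and −0.59 ± 0.66 for Trim5 (adjusted p = 0.646 and 0.754), so neither passed. Trim12a was at 50.6 ± 2.10 RPM in control and 46.5 ± 0.678 RPM in CS, and its log2 fold change was 0.01 ± 0.29. In α7E260A:G these 3 genes had from 0 to 7 counts per library and no fold change is given.

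Trim12c was lower with CS in both α7G pairs (36.0 ± 5.27 against 23.2 ± 1.24 RPM, SD, n = 2 each) and higher in both α7E260A:G pairs (31.0 ± 9.89 against 34.8 ± 8.82 RPM). The test of the difference between these responses gave 0.61 ± 0.36 on the log2 scale (edgeR adjusted p = 0.9996), and it did not pass under any alternative, where the lowest adjusted p was 0.271. Trim34a was at 31.1 ± 0.580 RPM in α7G control and 29.8 ± 13.6 RPM in α7G CS, where the male library was higher and the female lower than its control. The remaining rows, with Trim34a in α7E260A:G, had log2 fold changes from −1.05 to 0.73 in α7G and from −1.36 to 0.56 in α7E260A:G, with standard errors of at least 0.49.

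**Figure D5:**
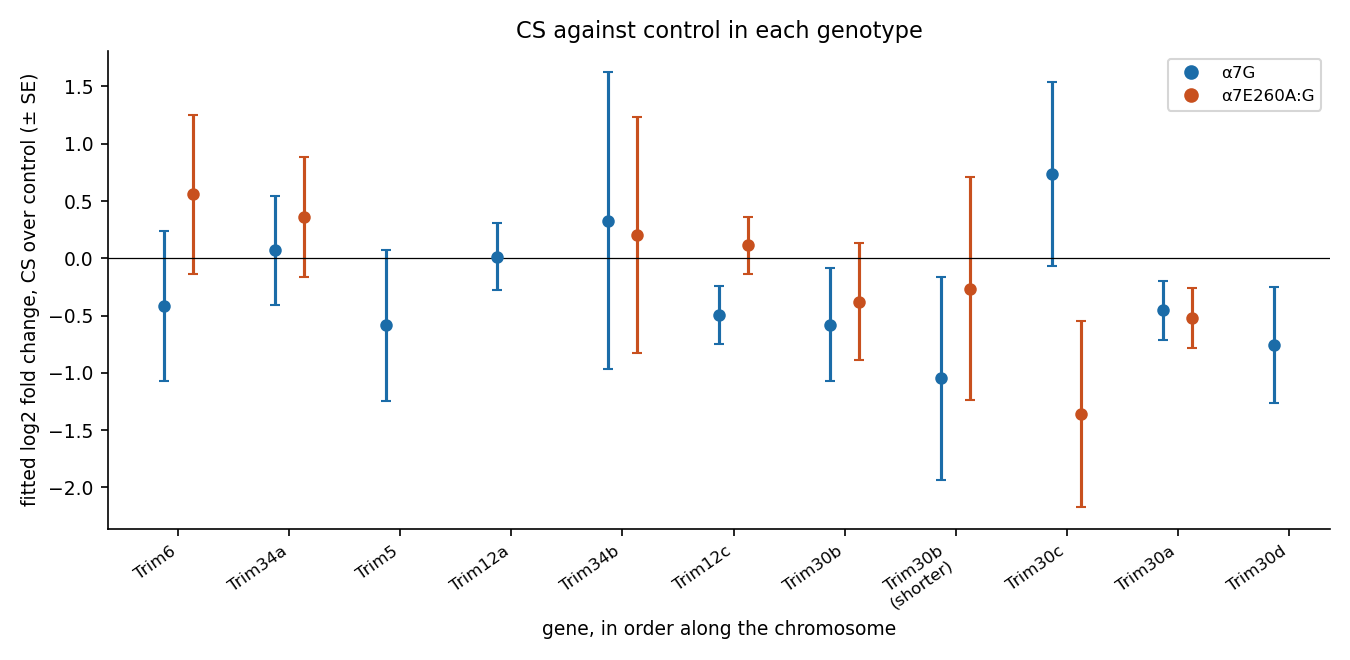
Fitted edgeR log2 fold change of CS over control with its standard error for each cluster row, in α7G (blue) and α7E260A:G (orange), with Trim5, Trim12a and Trim30d left out of α7E260A:G where they had at most 7 counts. Trim30a is at −0.45 in α7G and −0.52 in α7E260A:G, and no row passed the test.

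Females and males were compared with the 4 groups in the model. None of the rows passed, and 0.0212% of all genes did. Of the 11 rows, 10 had a negative log2 fold change (female against male), with a median of −0.44 beside −0.03 over all genes. The median is the value of Trim5, which like Trim12a and Trim30d had almost no counts in α7E260A:G. The rows include near copies and the share of negative values over all genes was not counted, so nothing is read from these numbers. Trim34a was the only row with an unadjusted p under 0.05 (−0.65 ± 0.28, edgeR adjusted p = 0.315). Library-wide dependence of counts on CDS length moved with sex and group, from −0.29 log2 units per doubling of CDS length in the α7E260A:G control female to 0.41 in the α7E260A:G control male, and with a CDS length offset the log2 fold change of Trim34a was −0.40 (edgeR adjusted p = 0.427) and no row passed.

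The other TRIM genes are set beside these values as a description. Of 57 TRIM genes outside the cluster, which include its neighbours Trim21, Trim68 and Trim3, 34 were tested. None passed the CS tests, and their median CS log2 fold change was −0.12. Their median log2 ratio of the genotypes was 0.00. Of the 34, 1 was lower in α7E260A:G without overlap and none higher, beside 5.46% lower and 2.33% higher of all genes tested. This was Trim27 (68.7 ± 4.48 RPM in α7G and 53.9 ± 2.73 RPM in α7E260A:G, SD, n = 4 each). Among those with a mean count of at least 50 the most positive log2 ratios were 0.91 for Trim29, 0.51 for Trim56 and 0.51 for Trim36, and the most negative were −0.77 for Trim7, −0.35 for Trim27 and −0.33 for Trim16. None of these came near the ratios of Trim12a, Trim30d and Trim5. Those genes were chosen for their ratios, so nothing is read from this comparison.

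Genes that act with TRIM5 and TRIM30 and other antiviral genes were counted by the same criterion of no overlap, which 5.46% of all genes tested met as lower and 2.33% as higher in α7E260A:G. Of 14 genes that act with TRIM5 and TRIM30, which include the autophagy receptor Sqstm1 (417.4 ± 46.8 RPM in α7G and 438.8 ± 67.7 RPM in α7E260A:G), the NF-κB subunits Nfkb1 and Rela and the inflammasome protease Casp1, 0 were without overlap between the genotypes and 0 passed a CS test. Of 13 other retrovirus restriction genes, among which Samhd1, Slfn2, Ifitm3 and Ifitm2 were the most abundant, 1 was lower in α7E260A:G without overlap and none higher. This was Apobec3, a cytidine deaminase that acts on retroviral DNA, with 175.5 ± 13.3 RPM in α7G and 78.0 ± 16.1 RPM in α7E260A:G (SD, n = 4 each), named here after its values were seen. Of 28 interferon-stimulated genes tested, 2 were lower (Ifit3 and Oasl2) and 2 higher (Ifi44 and Ifih1) without overlap, with a median log2 ratio of −0.02, and none passed a CS test. Lgals3bp and Psmb8 were the most abundant of these, and Psmb8, an immunoproteasome subunit, was at 277.0 ± 51.5 RPM in α7G and 242.3 ± 65.4 RPM in α7E260A:G (SD, n = 4 each).

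The promoters of the cluster hold a word common to interferon-responsive genes. The interferon-stimulated response element is built around TTTCNNTTTC, which was searched on either strand from 250 bases before to 50 bases after the start of each gene in RefSeq (GRCm38.p6). It was present in 7 of 11 promoter entries of the cluster (63.6%, for 10 symbols), in 3.44% of 32851 promoters of all genes, in 5.45% of 55 promoters of other TRIM genes and in 45.8% of 24 promoters of the interferon-stimulated genes. The 11 entries are not the 11 rows of counts, since Trim30a has a further entry, also with the word. Near copies among the entries are not independent of each other. The words are shown as a description of the reference. The promoter sequence of the mice was not examined, and whether the words bear on the counts in either genotype was not tested. Capitals mark the word, and the windows are on the plus strand for Trim34a (chr7:104244457-104244486) and on the minus strand for Trim5 (chr7:104288136-104288165), Trim12a (chr7:104315466-104315495), Trim12c (chr7:104353359-104353388), Trim30a (chr7:104465210-104465239) and Trim30d (chr7:104507871-104507900).
Trim34a: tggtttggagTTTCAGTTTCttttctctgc
Trim5: agagttgtggTTTCTGTTTCatttccagag
Trim12a: agagttgtggTTTCTGTTTCatttccagag
Trim12c: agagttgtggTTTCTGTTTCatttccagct
Trim30a: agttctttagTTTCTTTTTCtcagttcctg
Trim30d: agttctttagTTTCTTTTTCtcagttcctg

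Trim5, Trim12a and Trim12c have the same word, and so do Trim30a and Trim30d. The word was not found in these windows of Trim6, Trim34b, Trim30b and Trim30c. These are letters of the reference genome, and a match is a description and not a site.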

How the data were processed

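RNA-Seq of CD45-depleted distal lung cells was analysed from 8 libraries in 4 groups, α7G and α7E260A:G with and without CS, 1 male (replicate 1) and 1 female (replicate 2) in each. The authors prepared stranded poly-adenylated mRNA libraries, aligned the reads to mm9 (NCBIM37) by STAR and counted those on the coding sequences of GENCODE M1 by htseq-count. Raw counts per gene were deposited, neither normalized nor filtered. Tool versions, the strand setting and the treatment of reads with several places are not given in the sources used here. All 22756 rows matched GENCODE M1 by identifier and symbol.

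RPM were counts divided by the library total and multiplied by 1000000. Tests on counts used R 4.3.3 with limma 3.58.1 and edgeR 4.0.16 (filterByExpr, 14140 genes, TMM, glmQLFit and glmQLFTest, Benjamini-Hochberg over all genes tested), with the 4 groups in the model and sex added for the female against male test. The filter of the study, a mean count of at least 200, keeps 7191 genes and 3 of the 11 rows and was an alternative. Further alternatives were DESeq2 1.42.0, library size scaling, no filter, a CDS length offset, sex as a block, subsets of libraries and leaving out each library. Intervals of pooled ratios are exact 95% binomial intervals. CDS identity came from global alignments with Biopython 1.88, and other steps used Python 3.11.15, numpy 2.4.6, pandas 2.3.3, scipy 1.17.1 and matplotlib 3.10.9. The edgeR test was tested on simulated data.

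The members, gene lists and marker lists were chosen with earlier results of these data known. Named genes are all members, the 3 genes most like each member with a mean count of at least 50, flanking protein-coding genes within 2 Mb with that count, the other TRIM genes with the 3 highest and 3 lowest genotype ratios, and up to 4 of the most abundant genes of each list. Library totals of 8020726 to 10944100 put a floor of 3 counts at 0.274 to 0.374 RPM. Protein sequences were not used here.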

Additional observations from a re-analysis of the deposited data

Results flagged for a closer look

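In 22 sets of 4 libraries, the 11 rows in each genotype, 4 sets had 1 library far from the other 3 by Dixon's criterion, which chance meets in about 1 of 20 sets. The α7G control male was high for Trim30b (39.6 RPM) and for the shorter Trim30b model (5.65 RPM). The α7E260A:G control male was high for Trim30a (84.3 RPM) and for Trim5 (0.487 RPM, which is 4 counts where the other 3 libraries had 0). With the other 3 libraries at 0, any count of Trim5 meets the criterion. The Trim30b flags also come from the same library, so the 4 sets are not to be held against the share met by chance. The α7E260A:G control male was also the library with the steepest dependence of counts on CDS length, 0.41 log2 units per doubling, and its part in these values was not tested.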

How the results depend on the processing

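The counts of cluster rows called were 0 in the 4 CS tests under 15 alternatives and in the female against male test under 13. The smallest adjusted p of a row was 0.0794 for Trim5 (CS over both genotypes, without the α7E260A:G control female), a value that rests on 4 counts against 0 and 0 in α7E260A:G and is no sign of a CS effect there. The next was 0.0913 for Trim30a in the same setting, and 60 of 763 fitted values of single rows had another sign. Counts over all genes moved more. For CS over both genotypes 0 genes were called, against 63 with DESeq2, 1 without a filter, 2 with the CDS length offset, 20 with the offset and sex as a block, and 0 to 98 when 1 library was left out. For CS in α7G 0 genes were called, against 18 with DESeq2. For CS in α7E260A:G 1 gene was called, against 34 with DESeq2, 0 with library size scaling or a mean count of at least 200, 3 without a filter, 2 with the offset, 12 with the offset and the block, and 0 to 139 when 1 library was left out. For the difference of the CS responses 0 genes were called, against 7 with DESeq2, 1 with the offset, 1 with the offset and the block, and 0 to 92 when 1 library was left out. The highest of these, 98, 139 and 92, came without the α7E260A:G control male. For female against male 3 genes were called, against 52 with DESeq2, 7 with the offset and 2 to 4 when 1 library was left out. The labels number no replicates and give libraries of different groups only their sex in common. The deviations of the male libraries correlated between groups with r from 0.0365 to 0.678, not above 0.1 in every pair of groups, and whether libraries of a sex also shared a preparation was not tested. With sex as a replicate block alone 0 genes were called for CS over both genotypes, in α7G, in α7E260A:G and for the difference. The cause of these differences was not tested.

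The 5 rows lower in α7E260A:G without overlap were 4 to 6 under the alternatives. The 1 row higher was 2 in control libraries alone, 2 in CS libraries alone and, by shares of the counts of the 11 rows (a scaling chosen after seeing the data, as were the sums of paralogs), 3. The log2 ratio lay between −6.46 and −5.91 for Trim12a, −4.52 and −3.63 for Trim30d, −4.14 and −3.38 for Trim5, −3.14 and −1.87 for Trim34a and −1.69 and −0.47 for Trim30b. The sign differed in 9 of 165 values, for Trim12c, Trim30a, Trim30c and Trim6. With 2 libraries per group and standard errors of 0.25 or more for CS in either genotype, changes of the size seen in Trim30a could not be told from the spread, and counts of 0 to 47 per library limit Trim34b, Trim30c, Trim6 and the shorter Trim30b model.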

Other observations

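Within 5 Mb of the cluster 4 of 84 other genes tested differed by more than 4-fold between the genotypes, and all 4 did so without overlap. Over all chromosomes without the cluster rows this was so for 79 of 14129 genes, and the difference of these shares was not tested. The 4 genes are named here after their values were seen, and the words they share with other genes were not counted. Gm1966 (chr7:113744757-113747549), a predicted gene 2.09 Mb beyond the cluster, had 777, 530, 181 and 214 counts in the α7G control male, control female, CS male and CS female and 68, 34, 48 and 27 counts in the α7E260A:G libraries in the same order. Gvin1 (chr7:113300049-113358854), a very large GTPase that interferon induces, had 24, 30, 6 and 6 counts in α7G and 0 in each α7E260A:G library, which allows at most 5.58% of the α7G level at the pooled depth (exact 95% interval). Gm4759 (chr7:113565064-113584587), between these, went the other way, with 47, 19, 13 and 15 counts against 166, 118, 109 and 66. On the other side, 4.88 Mb away, Mtap6 (chr7:106415957-106485647), a microtubule-associated protein, had 33 to 79 counts in α7G and 456 to 553 counts in α7E260A:G (6.84 ± 2.08 and 57.2 ± 11.4 RPM, SD, n = 4 each). Gm1966 and Gvin1 had fewer counts with CS in both α7G pairs, and no gene passed the test of CS in α7G.

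The adult beta globin genes Hbb-b1 and Hbb-b2 lie 0.39 and 0.40 Mb from the cluster. Their levels moved with each other by library, from 1164 to 44868 counts for Hbb-b1, and the count of Hbb-b2 was 16.9% to 25.7% of that of Hbb-b1 in the 4 α7G libraries and 5.24% to 9.47% in the 4 α7E260A:G libraries, without overlap. These genes are near copies of each other, so their split rests on reads that can be told apart.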
